A study of Homo sapiens with 15 samples.

Results

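Focal adhesions are the sites where integrins in the plasma membrane are coupled to the actin cytoskeleton. The genes described here encode 10 proteins of that coupling: TLN1, VCL, PXN, ZYX, PTK2, FLNA, ACTN1, ACTN4, MYL9 and TPM1. They were chosen by name, with earlier results of these data known, to be set against the integrins themselves. All 10 were found among the 59608 genes of the table, and 10 of the 10 were among the 13561 genes that averaged at least 10 normalized counts and so entered the tests. RNA was measured in MDA-MB-231 cells, a human triple-negative breast cancer line that grows attached to plastic, after 6 h with vehicle (DMSO) or ZJ-101 at 0.5, 5, 50 or 500 nM. ZJ-101 is a synthetic analog of a marine natural product. Each of the 5 groups had 3 libraries, each from a dish of its own. Every dish held the same line with no genetic change named in the labels, so a single line stands for the tumour type. A normalized count is the number of reads on a gene divided by the size factor of its library.

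Talin binds the tails of integrin beta subunits and carries force to actin, and vinculin joins talin to actin once talin is stretched. Paxillin is a scaffold that recruits kinases, among them FAK, the product of PTK2, while zyxin gathers at mature adhesions and at strained stress fibres. Filamin A and the alpha-actinins crosslink actin filaments, and the myosin light chain of MYL9 and the tropomyosin of TPM1 belong to the contractile filaments themselves. Many genes of this set are known targets of the serum response factor SRF, which binds the CArG box, and of the TEAD factors that work with YAP.

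The sequences shown are the promoter stretches of members that hold a CArG box, and a stretch upstream of PXN, the member that passed the test at the highest dose. RefSeq promoter windows, from 250 bases before to 50 bases after a start site on GRCh38.p14, were matched for 8 of the 10 members and gave 13 windows, while MYL9 and PTK2 were not matched. A CArG box, written as CC, then 6 letters that are A or T, then GG, was found in 2 of the 13 windows, of FLNA and ACTN1, and in 1.29% of all 35116 windows and 1.09% of the 14684 windows of tested genes. The ACTN1 window belongs to an alternative start site inside the gene. The motif GGAATG of the TEAD factors was found in 3 of the 13 windows, of ACTN1, PXN and VCL, and in 14.0% of all windows and 11.4% of those of tested genes. For ACTN1 and PXN it lay in the window of an alternative start site inside the gene. The upstream PXN window, from which the printed stretch comes, did not hold it. GGGCGG, the motif of SP1, was found in 9 of the 13 windows, and in 45.0% of all windows and 65.7% of those of tested genes. Both strands were searched. The capitals mark the CArG box in the first 2 sequences and GGGCGG, or its reverse complement, in the third, and all 3 genes lie on the minus strand, so each sequence is given 5′ to 3′ along that strand.
FLNA (chrX:154374694-154374753, minus strand, bases -119 to -60 from the start site): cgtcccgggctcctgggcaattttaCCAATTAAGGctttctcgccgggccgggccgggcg
ACTN1 (chr14:68977703-68977762, minus strand, bases -196 to -137 from the start site): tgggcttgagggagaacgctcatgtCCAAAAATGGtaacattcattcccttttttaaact
PXN (chr12:120265786-120265930, minus strand, bases -200 to -56 from the start site): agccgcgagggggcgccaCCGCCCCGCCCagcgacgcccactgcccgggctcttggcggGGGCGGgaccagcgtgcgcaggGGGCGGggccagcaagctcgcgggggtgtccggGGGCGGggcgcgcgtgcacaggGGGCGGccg
The FLNA stretch lies just upstream of the gene and overlaps an exon of the annotated gene ENSG00000285018, the ACTN1 stretch lies in an intron of its own gene, and the PXN stretch lies upstream of its gene with 6 copies of the SP1 motif. A match is a description of these letters and not a measured binding site. No member had another gene with a near-identical transcript, as 10 were searched.

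Within DMSO, the members differed widely in level when counts were divided by the length of the merged exons. ACTN4 was the highest with 3276 ± 63.0 normalized counts per kilobase (SD, n = 3), followed by FLNA with 2574 ± 69.0 per kilobase. ACTN1 with 1058 ± 17.0 and TLN1 with 1050 ± 18.8 per kilobase were not separated beyond their spread. Then came VCL with 922 ± 12.8, ZYX with 749 ± 22.7, MYL9 with 611 ± 7.51, PXN with 362 ± 4.40, PTK2 with 260 ± 5.67 and TPM1 with 80.4 ± 2.37 per kilobase, each apart from its neighbours by more than their spread. Per kilobase of the longest transcript, the first 6 places and the last were held by the same genes, with ACTN1 at 2783 ± 44.8 above TLN1 at 1201 ± 21.6, and PTK2 at 697 ± 15.2 moved above MYL9 at 616 ± 7.57 and PXN at 494 ± 6.02. On either length, the crosslinkers ACTN4 and FLNA stood at the top of the set and the tropomyosin TPM1 at the bottom. Per kilobase of merged exons, the integrin beta subunit ITGB1 stood at 1779 ± 32.3, below ACTN4 and FLNA, and ITGA5 at 386 ± 8.95. Per kilobase of the longest transcript, ITGB1 stood at 4615 ± 83.7, above ACTN4 at 4022 ± 77.4, and ITGA5 at 570 ± 13.2.

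The libraries held 12415519 to 15284762 reads on genes. VIM, CD44, AXL, EGFR, CAV1 and MSN, which this line is known to express, had medians of 5174 to 16835 normalized counts, while ESR1 reached 4.30 at most. Of the other genes listed beforehand as low or absent in this line, PGR reached 17.3 at most. The rest were detected at low levels, ERBB3 at 83.2 to 117, CDH1 at 107 to 206, GATA3 at 122 to 168 and EPCAM at 266 to 320. Of 6 markers of smooth muscle and myofibroblasts, cells that use many of the members, MYH11 was at 0 and DES, CNN1, LMOD1 and ACTG2 had at most 8.15 normalized counts, while SMTN had 990 to 1316. Their sum, nearly all of it SMTN, was 997 to 1078 in DMSO, 1222 to 1262 at 0.5 nM, 1155 to 1320 at 5 nM, 1046 to 1157 at 50 nM and 1176 to 1254 at 500 nM, and its part in the values of the members was not tested. Replicate 2 of the 0.5 nM group stood apart from the rest. Its median distance from its group was 0.164 on the log2 scale against 0.068 to 0.124 in the other libraries, and its values moved with transcript length, as given further on. A fall in a transcript in these bulk samples cannot be told apart from a loss of cells that hold it.

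The first question was whether the transcripts of the coupling machinery moved with the dose, and for 9 of the 10 members no change passed the test at any dose. The only member that passed was PXN, which rose at 500 nM. limma with Benjamini-Hochberg adjustment over all tested genes called 0 members at 0.5 nM, 0 at 5 nM, 0 at 50 nM and 1 at 500 nM. Over all tested genes, the shares called in either direction were 1.17%, 2.18%, 6.00% and 17.8%. At 500 nM, 7.69% of the tested genes were called up and 10.1% down. Among the 3452 genes averaging at least 1000 normalized counts, a level that each member exceeds, 27.2% were called at 500 nM. At an unadjusted p under 0.05, limma picked VCL at 0.5 nM, PXN at 5 nM, none at 50 nM, and FLNA and PXN at 500 nM, where 14.7%, 12.9%, 17.4% and 29.3% of all tested genes fell under that limit. Count tests on the whole reads recovered from the table, by edgeR and by DESeq2, gave the same adjusted counts, 0, 0, 0 and 1, with PXN as the call. At an unadjusted p under 0.05, edgeR picked the same genes and DESeq2 added ACTN4 at 0.5 nM. The 4 dose comparisons share the 3 DMSO libraries.

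**Figure D1:**
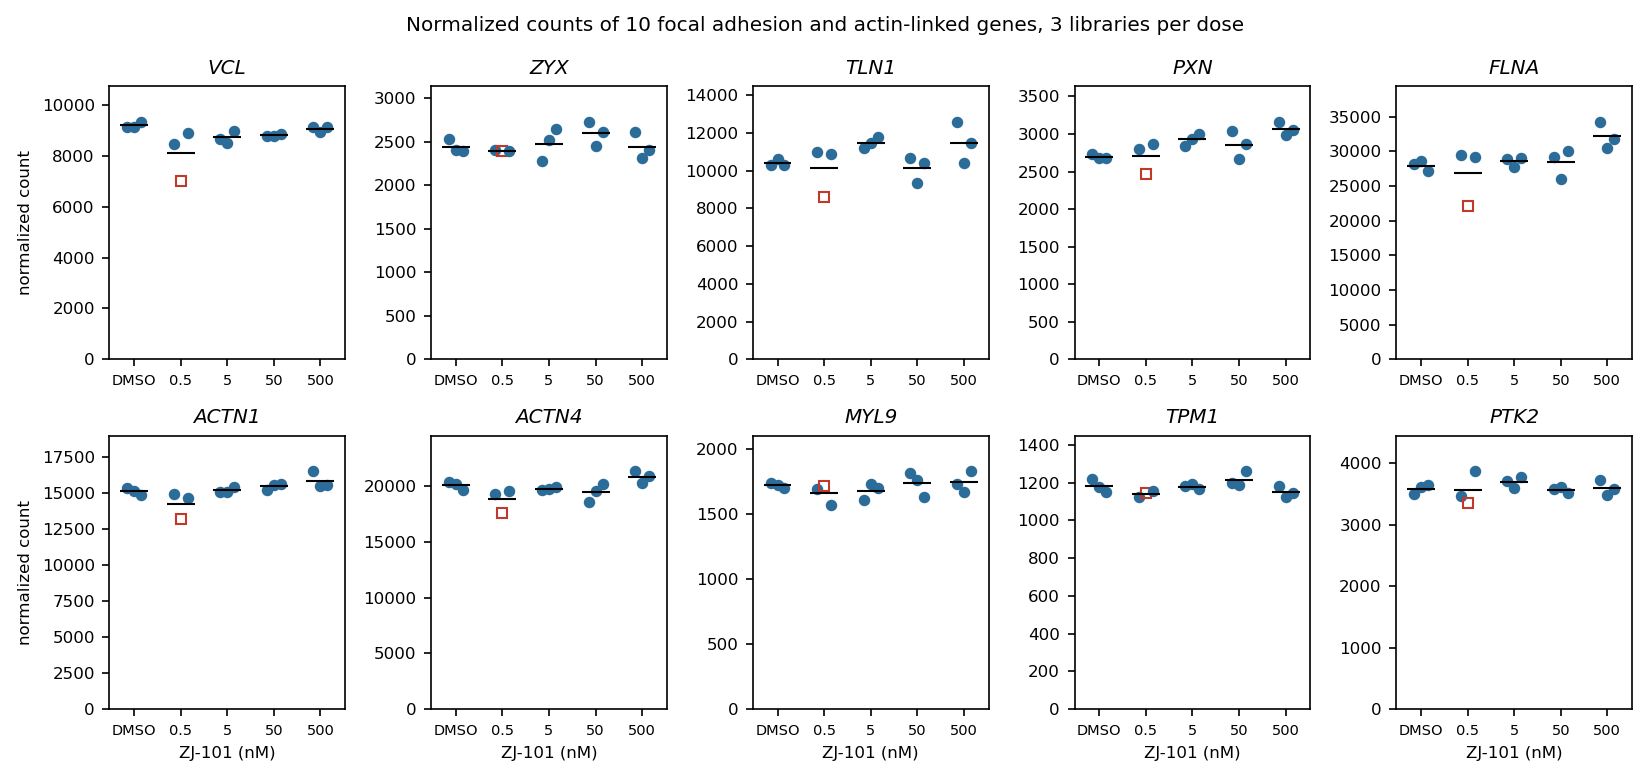
Normalized counts of the 10 members (y axis, from 0, a scale of its own in each panel) in each library by dose of ZJ-101 (x axis, nM), with the group mean as a line. The open square is replicate 2 of the 0.5 nM group, which was the lowest of the 15 libraries for VCL, TLN1, PXN, FLNA, ACTN1, ACTN4 and PTK2, while most other points lie close to the DMSO level.

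PXN, the paxillin gene (GRCh38, chromosome 12, 120210439 to 120265771, minus strand), had 2736, 2677 and 2681 normalized counts in DMSO. It had 2804, 2467 and 2868 at 0.5 nM, 2842, 2939 and 3001 at 5 nM, and 3045, 2668 and 2861 at 50 nM. At 500 nM it had 3165, 2984 and 3049, so that the 3 libraries of the highest dose lay above the 3 of DMSO. The log2 fold change was 0.18 with a standard error of 0.056 (95% interval 0.067 to 0.301), a rise of 13.6%, with an adjusted p of 0.027 from limma. The slope over the ranks of the 5 groups, from DMSO to 500 nM, was 0.04 per rank with an adjusted p of 0.021, and the slope called 1 of the 10 members against 17.6% of all tested genes, 8.23% upwards. PXN stood near the threshold. Its adjusted p at 500 nM was 0.056, 0.084 and 0.078 when DMSO replicate 1, 2 or 3 was left out, 0.11 without 500 nM replicate 1, 0.064 without 500 nM replicate 3 and 0.058 without the filter on low counts. That of the slope was 0.074 and 0.053 without 500 nM replicate 1 or 3. Of the exon bases of PXN, 27.2% also lie in other genes, and PXN-AS1, an antisense RNA there, had between 26.4 and 57.0 normalized counts over the 15 libraries. Among the other members, the largest such shares were 22.7% for TPM1, 14.2% for ACTN4 and 11.1% for VCL. AP3M1, which overlaps VCL, had between 1119 and 1467 normalized counts, while CAPN12 at ACTN4 reached 5.2 and TPM1-AS at TPM1 reached 1.0.

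TLN1, the talin gene (chromosome 9, 35696948 to 35732195), had 10305, 10635 and 10318 normalized counts in DMSO. It had 10983, 8588 and 10884 at 0.5 nM, 11186, 11455 and 11796 at 5 nM, 10654, 9371 and 10432 at 50 nM, and 12607, 10406 and 11452 at 500 nM. The 5 nM libraries lay above DMSO without overlap, the 50 nM libraries did not, and at 500 nM a library fell among the DMSO values. The log2 fold changes against DMSO were -0.05, 0.14, -0.04 and 0.14 from the lowest to the highest dose, with an adjusted p of 0.28 from limma at 500 nM (95% interval -0.03 to 0.31). The path of TLN1 was thus not ordered by dose. Its fall from 5 to 50 nM, -0.18 on the log2 scale, passed when 0.5 nM replicate 2 was left out, with an adjusted p of 0.048 from limma, and with only those 2 doses in the fit.

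VCL, the vinculin gene (chromosome 10, 73995193 to 74121363), was highest in DMSO with 9148, 9134 and 9362 normalized counts. It had 8478, 7013 and 8901 at 0.5 nM, 8696, 8537 and 9005 at 5 nM, 8803, 8785 and 8864 at 50 nM, and 9140, 8956 and 9136 at 500 nM. The libraries of the 3 lower doses lay below those of DMSO, and the 500 nM libraries overlapped them. The log2 fold change at 0.5 nM was -0.19 (95% interval -0.32 to -0.06) with an adjusted p of 0.15 from limma, and at 500 nM it was -0.02 (95% interval -0.15 to 0.11). The size of the change at 0.5 nM rested on single libraries. It was -0.085 with an adjusted p of 0.33 from limma without 0.5 nM replicate 2, and -0.26 with an adjusted p of 0.026 without 0.5 nM replicate 3.

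ZYX, the zyxin gene (chromosome 7, 143381295 to 143391111), ranged from 2397 to 2532 normalized counts in DMSO and from 2392 to 2413 at 0.5 nM. It had 2281, 2519 and 2643 at 5 nM, 2734, 2455 and 2620 at 50 nM, and 2617, 2310 and 2410 at 500 nM. Its groups overlapped at each dose, and the log2 fold change at 500 nM was -0.002 (95% interval -0.12 to 0.12), a value whose sign turned under several settings. PTK2, the gene of FAK (chromosome 8, 140657900 to 141002216), ranged from 3491 to 3639 in DMSO and from 3490 to 3727 at 500 nM, a log2 fold change of 0.008 (95% interval -0.09 to 0.11) whose sign also turned. In percent, the intervals ran from -8.09 to 8.50 for ZYX and from -6.26 to 7.79 for PTK2.

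FLNA, the filamin A gene (chromosome X, 154348524 to 154374634, minus strand), was the member with the most reads. It had 28182, 28555 and 27112 normalized counts in DMSO, 29524, 22086 and 29224 at 0.5 nM, 28936, 27742 and 29082 at 5 nM, 29163, 26065 and 30119 at 50 nM, and 34296, 30447 and 31778 at 500 nM. The 500 nM libraries lay above those of DMSO without overlap, and the log2 fold change of 0.20 (95% interval 0.02 to 0.38) was larger than that of PXN, with an adjusted p of 0.12 from limma. The spread that all groups share carries the gap between 22086 and the other 2 libraries of 0.5 nM. Without 0.5 nM replicate 2 the adjusted p of FLNA was 0.0057, and with the DMSO and 500 nM libraries alone it was 0.0025. Its step from 50 to 500 nM, 0.18 on the log2 scale, also passed without that library, with an adjusted p of 0.047.

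ACTN1 (chromosome 14, 68874128 to 68979440) and ACTN4 (chromosome 19, 38647649 to 38731589) encode the alpha-actinins of non-muscle cells. ACTN1 had 15396, 15126 and 14909 normalized counts in DMSO and 16516, 15509 and 15600 at 500 nM, which did not overlap, with a log2 fold change of 0.07 (95% interval -0.03 to 0.16). ACTN4 had 20380, 20187 and 19636 in DMSO and 21305, 20231 and 20885 at 500 nM, with a log2 fold change of 0.05 (95% interval -0.04 to 0.15). At 0.5 nM, the ACTN4 libraries, from 17624 to 19548, lay below DMSO, and the log2 fold change was -0.09 with an adjusted p of 0.36 from limma. At 500 nM the differences came to 4.79% for ACTN1 and 3.67% for ACTN4, and neither passed the test.

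The genes of the contractile filaments lay close to DMSO at 500 nM. MYL9 (chromosome 20, 36541497 to 36551447), a regulatory light chain of non-muscle and smooth muscle myosin, ranged from 1695 to 1737 normalized counts in DMSO and from 1669 to 1824 at 500 nM. Its log2 fold change was 0.02 (95% interval -0.09 to 0.13). TPM1 (chromosome 15, 63042620 to 63071915) ranged from 1150 to 1219 in DMSO and from 1125 to 1184 at 500 nM, with a log2 fold change of -0.04 (95% interval -0.13 to 0.05). In neither gene were the libraries of any dose apart from those of DMSO.

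Counted over the members, libraries were apart from DMSO for VCL and ACTN4, both below, at 0.5 nM, for PXN and TLN1, above, and VCL, below, at 5 nM, for VCL, below, at 50 nM, and for PXN, FLNA and ACTN1, above, at 500 nM. These are 2, 3, 1 and 3 of 10 members, against 18.1%, 23.2%, 24.8% and 38.5% of all tested genes, which puts the members close to or below the background. Between neighbouring doses, limma called 0 members in the step to 5 nM, 0 in the step to 50 nM and 0 in that to 500 nM, where 0.118%, 5.01% and 2.28% of all tested genes were called. edgeR and DESeq2 also called 0 in each step. At an unadjusted p under 0.05, limma and edgeR picked TLN1 in the first step, TLN1 in the second, and ACTN4, FLNA and TLN1 in the third, and DESeq2 added ACTN1 in the first. The summed share of all reads that fell on the 10 members was 0.690% to 0.704% in DMSO and 0.584% to 0.703% at 0.5 nM. It was 0.694% to 0.716% at 5 nM, 0.672% to 0.723% at 50 nM and 0.723% to 0.783% at 500 nM. The 500 nM libraries lay above those of DMSO in this sum, to which FLNA contributes the most reads.

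The integrins were the set to compare. Of 26 integrin subunit genes, 16 were tested, and at 500 nM limma called 9 of them down and 1 up, against 0 down and 1 up of the 10 members. The median log2 fold change was -0.30 for the tested integrins, 0.035 for the members and 0.003 for all tested genes. The median absolute change was 0.37 for the integrins, 0.045 for the members, 0.125 for all tested genes and 0.089 for genes averaging at least 1000. The list of integrins was written with earlier results of these data known, so that its direction is not independent evidence.

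ITGA5, the alpha subunit of the main fibronectin receptor, had 2882, 2888 and 2771 normalized counts in DMSO and 1364, 1330 and 1435 at 500 nM. Its log2 fold change was -1.05 (95% interval -1.16 to -0.93), and its whole interval lay below the intervals of the 10 members. ITGA6, an alpha subunit of laminin receptors, followed with -0.99, then ITGB3 with -0.93, ITGB7 with -0.88, ITGB5 with -0.86, ITGA10 with -0.45, ITGA1 with -0.41, ITGAV with -0.34 and ITGB1 with -0.26. ITGA3, the alpha subunit that pairs with ITGB1 to bind laminin, rose by 0.14. ITGB7, ITGA10 and ITGB3 had few reads, with means of 30.7, 86.8 and 155 normalized counts in DMSO and 15.8, 62.5 and 80.5 at 500 nM. Of their exon bases, 42.3% in ITGB7, 33.2% in ITGB3 and 1.95% in ITGA10 also lie in other genes, and 13.2% of those of ITGA1 do. At 50 nM, ITGA5 with -0.69, ITGB5 with -0.56 and ITGA6 with -0.54 had fallen, while 0 integrins were called at 0.5 or 5 nM. ITGB1 had more reads than each member except FLNA, with 25403, 25985 and 26333 in DMSO and 21436, 21942 and 21402 at 500 nM. For ITGA3, ITGA10 and ITGB7 the call was lost without the filter, at adjusted p of 0.11, 0.066 and 0.071, and when certain single libraries were left out.

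**Figure D2:**
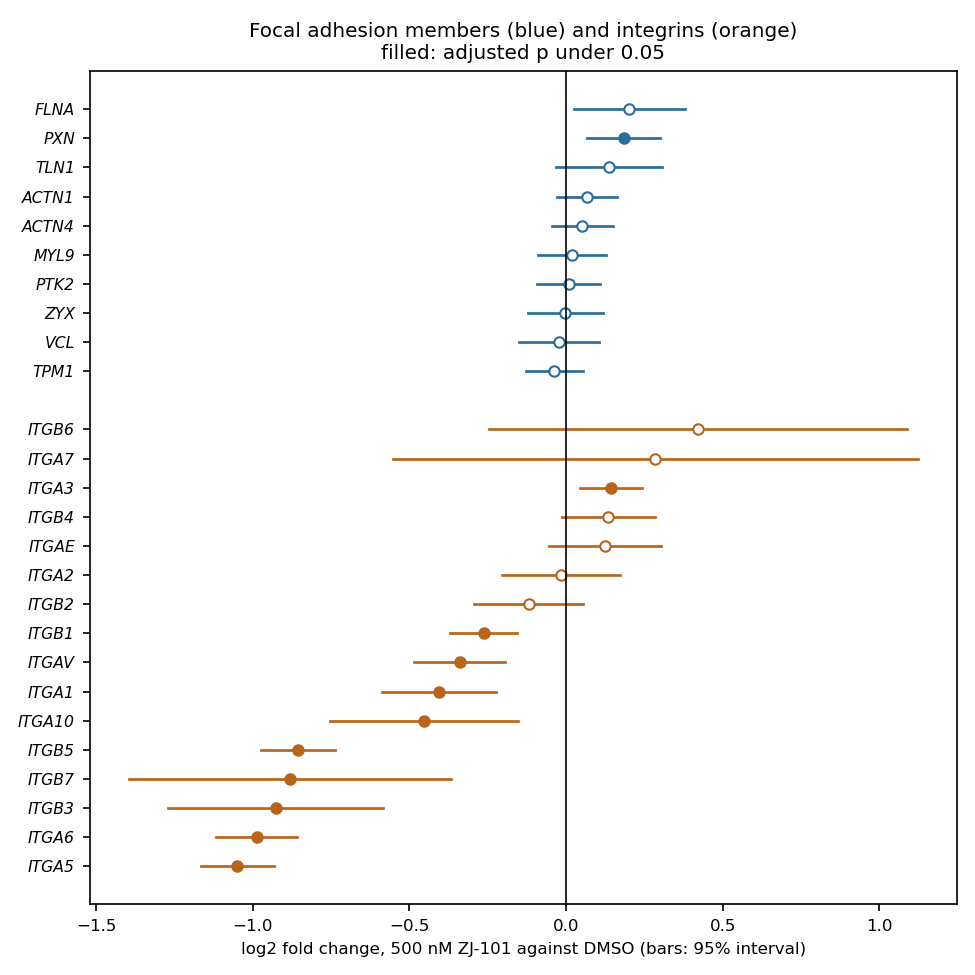
Log2 fold change at 500 nM against DMSO (x axis) with its 95% interval for the 10 members in blue and the 16 tested integrins in orange. Filled points passed an adjusted p of 0.05, and the members lie between -0.04 and 0.20 while 9 integrins lie between -1.05 and -0.26.

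Protein family relatives of the members, 14 in number, were then looked up, in a grouping made after the values had been seen. Of them 12 were tested, and at 500 nM 1 was called up and 0 down. This was FLNC, a filamin best known from muscle. It had 3467, 3493 and 3315 normalized counts in DMSO, 4462, 3130 and 4041 at 0.5 nM, 4435, 4376 and 4466 at 5 nM, 4367, 3659 and 4876 at 50 nM, and 6473, 5330 and 5546 at 500 nM. Its log2 fold change at 500 nM was 0.75 (95% interval 0.53 to 0.97, adjusted p of 4.5e-05 from limma), and its step from 50 to 500 nM was 0.43 with an adjusted p of 0.037.

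FLNC passed under each alternative that was run, with an adjusted p of at most 0.00052. FLNA and FLNC were both above DMSO in each library of 500 nM, and the interval of FLNC began above the end of that of FLNA, although the difference between them was not tested. The other tested relatives lay between -0.17 for TGFB1I1, the paralog of paxillin known as Hic-5, and 0.27 for LPP, a zyxin relative, with adjusted p of 0.056 and 0.063. LPXN, a further paxillin relative, had a log2 fold change of 0.08 (adjusted p of 0.19). Of the tropomyosins, TPM3 and TPM4, which had more reads than TPM1, were at -0.03 and -0.05. ACTN2 and ACTN3, the alpha-actinins of muscle, had at most a few reads and were not tested.

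**Figure D3:**
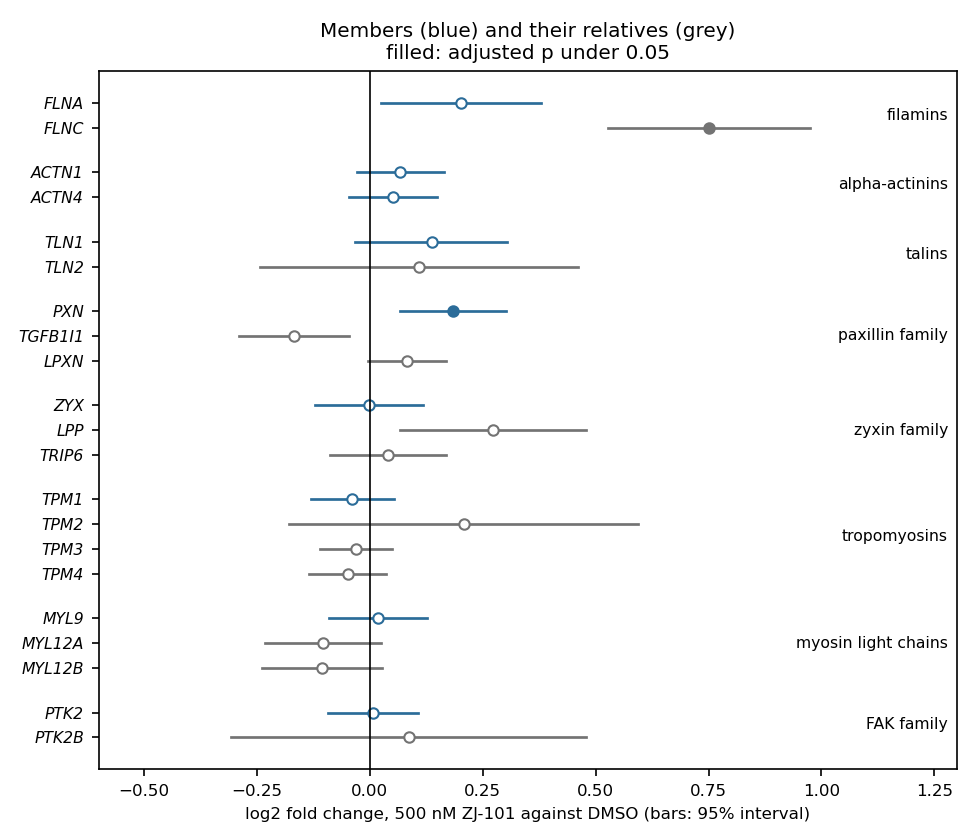
Log2 fold change at 500 nM against DMSO (x axis) with its 95% interval for members in blue and tested relatives in grey, grouped by protein family. Filled points passed an adjusted p of 0.05, which were PXN among the members and FLNC, at 0.75, among the relatives.

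Further genes of the adhesion site were taken from a list of 48 adaptors and signalling proteins, of which 46 were tested. At 500 nM 5 rose and 4 fell, with a median log2 fold change of 0.02. FLNC was among those that rose. FHL2, a LIM protein that binds integrin tails, rose by 0.41, from 1087 to 1192 in DMSO to 1502 to 1549 at 500 nM. KANK1, which binds talin, rose by 0.23 and is named outside the rule, after its value was seen. The tensins TNS4 with -0.57 and TNS2 with -0.35, which bind integrin tails, fell, as did VASP with -0.32, an actin polymerase that zyxin recruits, and SORBS3 with -0.29, which encodes the vinculin-binding protein vinexin. At the lower doses, TNS4 was called down at 0.5 and 5 nM, TNS2 at 0.5 and 50 nM and VASP at 50 nM, and FHL2 was called up at 50 nM and LPXN at 5 nM.

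Of 64 genes for actin, myosin and actin-binding proteins, 59 were tested, and 2 rose and 7 fell at 500 nM, with a median log2 fold change of -0.05. The 2 that rose were SYNPO with 0.28, encoding a partner of alpha-actinin, and LIMA1 with 0.15, which stabilises filaments and was lost without the filter (adjusted p of 0.057). Among those that fell were FSCN1 with -0.37, the bundler of filopodia, GSN with -0.33, which severs filaments, RHOB with -0.29, a small GTPase, and TAGLN2 with -0.26. A pseudogene, FSCN1P1, matches 53.2% of the FSCN1 transcript at 95.7% identity, and whether reads were exchanged between them was not tested. Of the tested adaptors 10.9% rose and 8.70% fell, and of the tested actin genes 3.39% rose and 11.9% fell, beside 7.69% and 10.1% of all tested genes.

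The values of 0.5 nM replicate 2 moved with transcript length, and the other libraries were not each examined in this way. Over all tested genes, 0.5 nM replicate 2 exceeded the mean of replicates 1 and 3 by a median log2 of 0.213 for the 1211 genes whose longest transcript is up to 1500 bases, and was at -0.23 for the 1912 genes above 7000 bases. The members with long transcripts were low in it, FLNA at -0.41, TLN1 at -0.35 and VCL at -0.31, all above 7000 bases. PXN was at -0.20, ACTN1 at -0.165, ACTN4 at -0.14 and PTK2 at -0.125. ZYX at -0.007, TPM1 at 0.008 and MYL9 at 0.074, with shorter transcripts, were not low. At 500 nM, genes above 7000 bases had a median log2 fold change of 0.038 against DMSO, and the shorter classes lay between -0.014 and 0.004. At 50 nM the medians against DMSO went the other way, from 0.012 for genes up to 1500 bases to -0.021 for those above 7000 bases. With each library's trend on the merged exon length removed, an alternative chosen after the data had been seen, FLNA passed at 500 nM with an adjusted p of 0.033 and PXN remained called. Without 0.5 nM replicate 2, the log2 fold changes at 0.5 nM turned from -0.06 to 0.07 for FLNA, from -0.05 to 0.07 for TLN1 and from -0.008 to 0.033 for PTK2, and that of ACTN4 went from -0.09 to -0.05. None of these passed the test with or without that library, and the part of RNA length in them was not tested further.

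**Figure D4:**
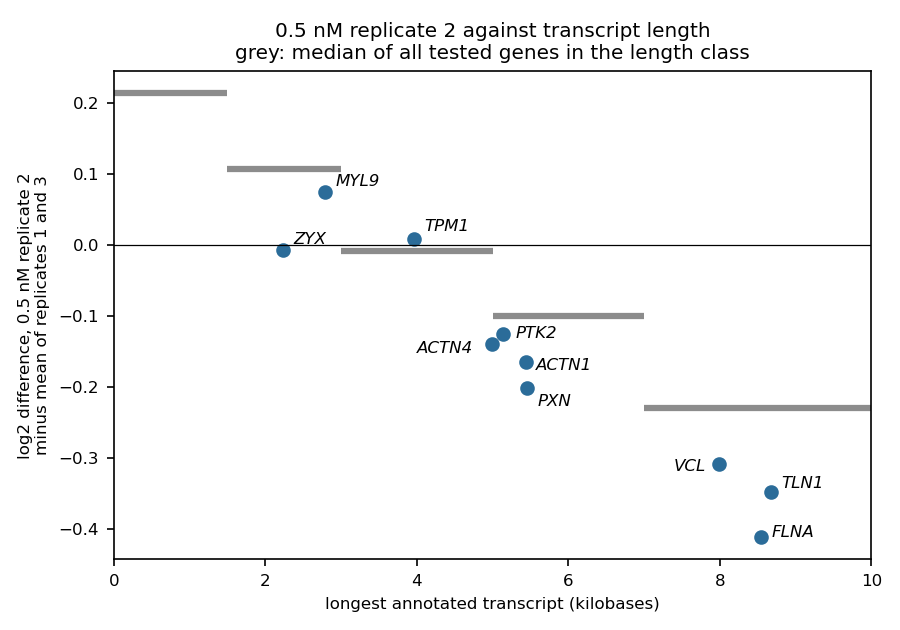
Log2 difference of 0.5 nM replicate 2 from the mean of replicates 1 and 3 (y axis) against the longest annotated transcript (x axis, kilobases) for the 10 members as points, with the median of all tested genes in 5 length classes as grey bars. The bars fall from 0.213 to -0.23, and FLNA, TLN1 and VCL lie lowest among the members.

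The tested genes with a dose pattern nearest to that of a member were ranked by the root mean square difference over the 4 log2 fold changes against DMSO. For PXN these were WDR59 with 0.0115, SPSB1 with 0.016 and ZNF592 with 0.0163. For FLNA they included ANKRD50 with 0.011 and MOB3B with 0.0161. For TLN1 they were ZNF470 with 0.0151, SUPT6H with 0.023 and PRR14L with 0.0246.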

How the data were processed

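RNA of 15 libraries from MDA-MB-231 dishes, 3 per group, was measured by poly-A RNA-seq. The authors used HISAT2 for alignment to hg38 and HTSeq for counts per gene, and divided the counts by DESeq2 size factors. The deposited signal values are thus normalized counts. Tool versions and the strand setting are not given in the sources used here. A line without a gene was left out.

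Each library was divided by its smallest step, which gave whole reads for 100.0% of values within 0.001. limma 3.58.1 (R 4.3.3) was run on log2(normalized count + 1) with a variance trend, for genes with a mean of at least 10, with 5 groups in 1 fit and 10 residual degrees of freedom, Benjamini-Hochberg adjustment and a threshold of 0.05. Fold changes are on that log2 scale. p-values measure the spread between dishes. In data simulated for 500 nM against DMSO over 13502 genes, 33.3% of genes changed by 0.3, 76.1% of those changed by 0.5 and 86.4% of those changed by 1 on the log2 scale were recovered, with 3 false calls. The changed genes were drawn from tested genes of all levels, so these shares do not describe genes as abundant as the members. The standard errors of the members at 500 nM lay between 0.043 for TPM1 and 0.085 for FLNA. Positions and lengths came from GENCODE release 44, and 93.2% of tested genes had a length. Within groups, the chi-square of 2 libraries over its degrees of freedom lay between 2.04 and 16.6, so none was a duplicate.

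The members and gene lists were chosen with earlier results of these data known. Named were the members, up to 4 rises and 4 falls at 500 nM among the called genes of each list, all called integrins, and the 3 genes nearest in dose pattern to each of the 3 members with the smallest p. Some genes that the rule names are not reported here. Alternatives were pseudocounts of 0.5 and 5, no filter or a minimum of 50, a block for the replicate number, TMM, edgeR 4.0.16 and DESeq2 1.42.0 on recovered reads, each library left out, only the groups compared, a threshold of 0.1, and, added later, the removal of the trend on length.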

Additional observations from a re-analysis of the deposited data

How the results depend on the processing

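PXN at 500 nM kept its direction under 26 alternatives, with log2 fold changes of 0.161 to 0.203 and adjusted p of 0.0012 to 0.11, and passed in 20 of them. The count of members called at 500 nM was 0 with no filter, 0 to 2 with each library left out, 2 with only the groups compared and 2 with the length trend removed, where FLNA joined PXN. By the slope it was 0 with no filter, 0 to 1 with each library left out and 2 with the length trend removed, and with the 12 treated libraries alone ACTN1 was called in place of PXN. At 0.5 nM it was 0 to 1 with each library left out (VCL), at 5 nM 1 with only the groups compared (TLN1), from 5 to 50 nM 0 to 1 with each library left out and 1 with only the groups compared (TLN1), and from 50 to 500 nM 0 to 1 with each library left out (FLNA without 0.5 nM replicate 2). The cause was not tested. The sign at 500 nM turned for ZYX with DESeq2 (0.001), with the length trend removed (0.033) and with libraries left out (-0.052 to 0.038), for PTK2 with the length trend removed (-0.009) and with libraries left out (-0.018 to 0.029), and for MYL9 with libraries left out (-0.016 to 0.048).

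Over all tested genes, the counts called ran from 19 to 391 at 0.5 nM, 113 to 846 at 5 nM, 560 to 1276 at 50 nM, 1795 to 3294 at 500 nM, 4 to 29 from 0.5 to 5 nM, 424 to 1129 from 5 to 50 nM and 139 to 630 from 50 to 500 nM, where the fit as reported gave 159, 295, 814, 2409, 16, 679 and 309.

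Libraries with the same replicate number were not paired in the fit as reported, and the labels do not say whether they were handled together. The correlations of their deviations lay between -0.085 and 0.096 over 30 pairs, against -0.13 to 0.123 over 60 pairs of different numbers. With the replicate number as a block, 1 member was called at 500 nM, PXN with an adjusted p of 0.014, 0 at each other dose, and 2506 of all tested genes at 500 nM. FLNA was not called with that block, at an adjusted p of 0.052 from limma.

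With 3 libraries per group, a member that missed the threshold is not shown to be unaffected, and the 95% intervals in the report give the sizes that the spread leaves possible.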
